A study of Mus musculus with 686 samples.

Results

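The miR-106b-25 cluster was followed through all 686 small RNA libraries as its 3 main mature miRNAs, mmu-miR-106b-5p, mmu-miR-93-5p and mmu-miR-25-3p. They were chosen by name, and they are 3 of the 1964 mouse miRNAs for which counts were given. Each value is given as CPM, the count of the miRNA per 1000000 counts on all miRNAs of the same library, so that a level is always a share of the miRNA pool. The libraries came from 83 female BALB/cAnNTac mice and from 13 tissues: spleen, thymus, kidney, lung, heart, liver, pancreas, diaphragm, brain, brown adipose tissue (BAT), and gonadal (GAT), mesenteric (MAT) and subcutaneous (SCAT) adipose tissue. Mice of the spaceflight arm (FL) were flown to the International Space Station (ISS), mice of the habitat ground control (HGC) stayed on Earth under conditions matched to the flight habitat, and mice of the vivarium ground control (VGC) were kept in standard housing. Both ages, 3 and 8 months, were present in each arm. In the TERM extraction mice were killed 22 to 24 days after launch under ketamine, xylazine and acepromazine, and the carcass was frozen whole and thawed for dissection, apart from the spleen, which was taken fresh into RNAlater. In the LAR extraction mice came back alive after 39.5 days, and tissues were snap frozen 2 to 4 days after splashdown, with the ground controls dissected alongside. The heart of every animal had been punctured to draw blood. LAR held 114 FL, 113 HGC and 121 VGC libraries and TERM held 115, 114 and 109, each from a separate mouse within a tissue.

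The 3 miRNAs are cut from hairpins that lie in an intron of Mcm7, the gene of a subunit of the helicase that unwinds DNA for replication. This intronic arrangement is the reason the cluster is commonly linked to dividing cells. MiR-106b-5p and miR-93-5p share the seed, the stretch near the 5′ end that pairs with target transcripts, with miR-17-5p and miR-20a-5p of the miR-17-92 cluster and with miR-106a-5p and miR-20b-5p of the miR-106a-363 cluster. MiR-25-3p shares its seed with miR-92a-3p, miR-92b-3p, miR-363-3p, miR-32-5p and miR-367-3p. Known targets of the miR-17 seed include the cell cycle inhibitor Cdkn1a, and miR-25 is known for targeting the proapoptotic gene Bcl2l11.

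The mature sequences, from RefSeq on GRCm38.p6, are shown because reads are told apart only by the bases outside the seed. The seed, bases 2 to 8 from the 5′ end, is in capitals.
mmu-miR-106b-5p: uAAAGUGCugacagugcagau
mmu-miR-93-5p: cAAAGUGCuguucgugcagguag
mmu-miR-17-5p: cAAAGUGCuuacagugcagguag
mmu-miR-20a-5p: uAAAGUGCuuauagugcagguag
mmu-miR-25-3p: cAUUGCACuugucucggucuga
mmu-miR-92a-3p: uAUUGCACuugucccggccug
mmu-miR-92b-3p: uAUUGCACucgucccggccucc
Aligned from the 5′ end, miR-106b-5p and miR-93-5p differed at 5 of the 21 positions they share. MiR-106b-5p was closer to miR-17-5p and miR-20a-5p, with 3 differing positions to each, than to its own neighbour in the cluster. MiR-25-3p differed from miR-92a-3p at 3 of 21 positions and from miR-92b-3p at 6 of 22. The seed AAAGUGC was found in 7 and the seed AUUGCAC in 6 of 1679 mature mouse miRNAs.

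All 3 mature sequences lie on the minus strand of chromosome 5 in GRCm38, miR-106b-5p at chr5:138165787-138165807, miR-93-5p at chr5:138165574-138165596 and miR-25-3p at chr5:138165332-138165353. The 3 hairpins fall within intron 13 of the 15-exon Mcm7 transcript Mcm7-201, an intron of 748 bases (chr5:138165162-138165909). Close relatives can share reads in counting, but the member counts held 0 fractional values, and the way reads were divided was not tested further.

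Every member was counted in every library, from 59 to 71922 counts for miR-106b-5p (median 4022), from 221 to 178218 for miR-93-5p (median 9709) and from 99 to 61801 for miR-25-3p (median 2908). Libraries held 0.181 M to 30.5 M miRNA counts (M, 1000000 counts) with a median of 3.88 M, and pancreas was the shallowest tissue, with a median of 0.866 M. In 164 of the 686 libraries (23.9%) the profile of 713 other miRNAs lay closest to a tissue other than the labelled one. Of these, 117 came from 11 of the 44 sequencing pools. MAT was affected most, with 46 of 57 libraries closest to another tissue, most often pancreas, and brain with 0 of 25. Of the tissue marker miRNAs, all were highest in their own tissue for spleen, heart, liver, pancreas and brain, 2 of 3 for thymus, lung and diaphragm, and 0 of 3 for kidney. No library was relabelled. In a bulk tissue, fewer cells of one type and less RNA per cell cannot be told apart.

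The cluster was most abundant in the lymphoid organs and least abundant in brain and diaphragm. Summed over the 3 miRNAs, it took a median of 1.40% of the miRNA counts in spleen and 1.19% in thymus, 0.370% to 0.560% in the tissues between, 0.194% in diaphragm and 0.117% in brain. MiR-93-5p was the most abundant member by median in each of the 13 tissues.

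**Figure D1:**
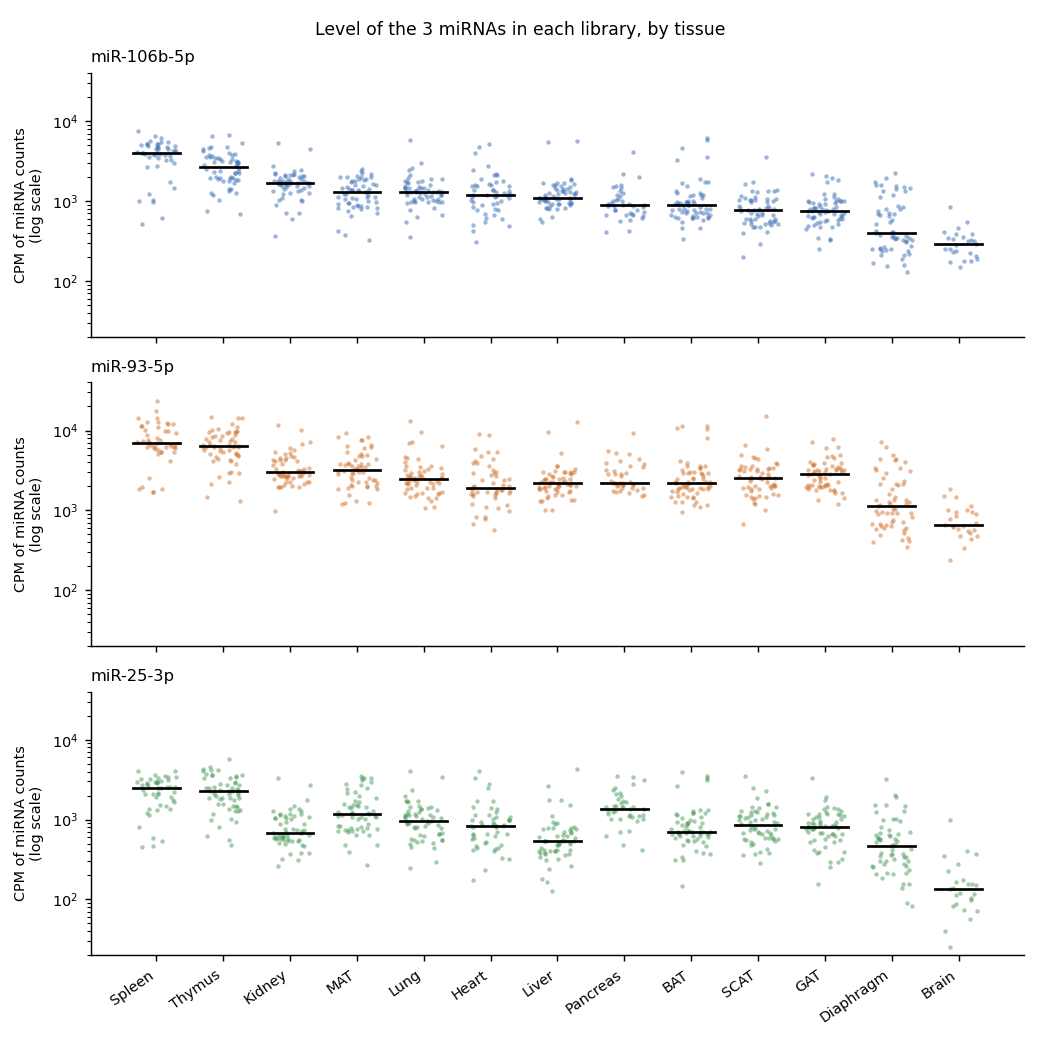
Each point is 1 library, with the CPM of miRNA counts on a log axis and tissues ordered by the median of miR-106b-5p (bars are medians). Spleen and thymus stand highest and brain lowest in all 3 panels, and points far from their tissue's bar occur in most tissues.

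In spleen (n = 47) miR-106b-5p ranged from 513 to 7489 CPM with a median of 4013, miR-93-5p from 1703 to 23677 with a median of 6881, and miR-25-3p from 452 to 4108 with a median of 2479. Thymus (n = 58) held 690 to 6830 CPM of miR-106b-5p (median 2692), 1319 to 14732 of miR-93-5p (median 6331) and 476 to 5707 of miR-25-3p (median 2258). The ranges of these lymphoid organs overlapped over most of their width. Without libraries that resembled another tissue, the spleen minima were 1470, 5152 and 1209 CPM, while the thymus minima stayed at 690, 1319 and 476 CPM. In the 36 mice with both tissues, spleen exceeded thymus by 0.33 ± 1.19 on the log2 scale for miR-106b-5p (SD, 25 of 36 mice, sign-flip permutation test, two-sided, adjusted p = 0.207), by 0.24 ± 1.19 for miR-93-5p (adjusted p = 0.457) and by -0.04 ± 1.11 for miR-25-3p (adjusted p = 0.921). Without libraries that resembled another tissue, spleen stood above thymus for miR-106b-5p (0.59 ± 0.67, 22 of 26 mice, permutation test, adjusted p = 6.00e-04) and miR-93-5p (0.47 ± 0.74, 18 of 26, adjusted p = 0.0138) but not detectably for miR-25-3p (0.08 ± 0.75, 14 of 26, adjusted p = 0.638). With TMM scaling, which sets libraries to a common composition, spleen was ahead by 0.02 for miR-106b-5p and thymus by 0.07 for miR-93-5p and by 0.35 for miR-25-3p, and none passed the permutation test (adjusted p = 0.948, 0.865 and 0.135).

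At the other end, brain (n = 25) held 148 to 855 CPM of miR-106b-5p (median 291), 240 to 1842 of miR-93-5p (median 650) and 25.6 to 981 of miR-25-3p (median 137). Diaphragm (n = 59) held 130 to 2245 CPM of miR-106b-5p (median 397), 348 to 7213 of miR-93-5p (median 1128) and 82.5 to 3258 of miR-25-3p (median 469). Only 9 mice had both tissues, and the difference did not pass the exact permutation test for any member, the closest being miR-25-3p, which was 1.29 ± 1.61 higher in diaphragm (7 of 9 mice, adjusted p = 0.152). Diaphragm spread widely, and 19 of its 59 libraries resembled another tissue, most often pancreas. Without them its medians were 328, 867 and 329 CPM, still between those of brain and the remaining tissues.

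Between these extremes the 3 members ranked the tissues differently. On plain CPM miR-106b-5p was highest, after spleen and thymus, in kidney (rank 5 on the TMM scale), with a range of 360 to 5370 and a median of 1682 CPM, where miR-25-3p, with a median of 672 CPM (258 to 3302), stood at rank 10 of 13. For miR-25-3p pancreas came next after spleen and thymus, with 419 to 3543 and a median of 1362 CPM, while its miR-106b-5p reached a median of 889 CPM (408 to 4170). In GAT the order was different again on plain CPM, since miR-93-5p had a median of 2830 CPM (1184 to 7854), above lung, heart and liver, and miR-106b-5p one of 753 CPM (253 to 2194), below them. On the TMM scale miR-93-5p in GAT stood at rank 10, below these tissues too. On plain CPM liver was low in miR-25-3p, at a median of 536 CPM (127 to 4281), beside 1100 CPM of miR-106b-5p (547 to 5710). Its rank for miR-25-3p was 11 on plain CPM and 9 on the TMM scale.

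The remaining tissues lay close together. Median levels of miR-106b-5p were 1301 CPM in MAT, 1297 in lung, 1196 in heart, 887 in BAT and 773 in SCAT. Those of miR-93-5p were 3188, 2484, 1896, 2172 and 2508 CPM in the same tissues, and those of miR-25-3p were 1186, 957, 837, 702 and 843 CPM. When each tissue was compared with the next lower one in the same mice, 5 of 12 neighbouring pairs of miR-106b-5p, 2 of 12 of miR-93-5p and 2 of 12 of miR-25-3p passed a permutation test on the mean difference. For miR-106b-5p these steps were from thymus down to kidney (0.64 ± 0.99 on the log2 scale, 43 of 55 mice, permutation test, adjusted p = 2.40e-04), kidney to MAT (0.39 ± 0.86, 36 of 54, adjusted p = 0.00472), liver to pancreas (0.35 ± 0.78, 27 of 38, adjusted p = 0.0184), BAT to SCAT (0.36 ± 0.94, 39 of 58, adjusted p = 0.0145) and GAT to diaphragm (0.66 ± 1.29, 40 of 59, adjusted p = 0.00132). MiR-93-5p dropped from thymus to MAT (0.91 ± 0.86, 49 of 55, adjusted p = 1.20e-04) and from heart to diaphragm (0.70 ± 1.49, 26 of 39, adjusted p = 0.0373). MiR-25-3p dropped from thymus to pancreas (0.61 ± 0.81, 30 of 38, adjusted p = 8.40e-04) and from kidney to liver (0.47 ± 1.22, 42 of 56, adjusted p = 0.0329). All other neighbours in the 3 orders did not pass. Without libraries that resembled another tissue, the steps of miR-106b-5p from liver to pancreas (0.26, permutation test, adjusted p = 0.0783) and from BAT to SCAT (0.14, adjusted p = 0.360) did not pass either. There kidney and MAT for miR-106b-5p and thymus and pancreas for miR-25-3p were no longer neighbours and were not compared. Thymus to MAT for miR-93-5p rested there on 10 mice. Without the 11 pools the step of miR-25-3p from kidney to liver did not pass (0.30, permutation test, adjusted p = 0.107). Steps were also gained without the libraries resembling another tissue, where 5 of 12 passed for miR-93-5p and 4 of 12 for miR-25-3p. On the TMM scale 2 steps changed in the same mice. GAT to diaphragm for miR-106b-5p was 0.01 ± 1.10 (24 of 59, permutation test, adjusted p = 0.948). For miR-25-3p liver stood above kidney, by 0.27 ± 0.97 (35 of 56, adjusted p = 0.135).

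From spleen to brain the medians spanned 13.7-fold for miR-106b-5p, 10.6-fold for miR-93-5p and 18.0-fold for miR-25-3p. This is a middling width, since the median span of the 602 miRNAs that reached 10 CPM in some tissue was 18.1-fold. Smaller spans than those of the members were found for 41.9%, 31.9% and 49.8% of the 602. Tau is an index that runs from low for even to high for single-tissue expression. It was computed on the log2 medians, where for a given span it also falls as the level rises. The members had low values, at 0.174, 0.127 and 0.153 beside a median of 0.402, with 18.6%, 10.6% and 13.5% of miRNAs below them. Levels were not matched to those of the 602, so these values do not show that the members were evener. Without brain, diaphragm was the lowest tissue and the spans shrank to 10.1-fold, 6.10-fold and 5.27-fold.

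One model over all libraries compared each tissue with the mean of the other 12. By edgeR's quasi-likelihood test with Benjamini-Hochberg adjustment, 28 of the 39 member and tissue pairs passed, 16 higher and 12 lower, where 60.3% of all such tests passed. All 3 members were higher in spleen (log2 differences of 1.57, 1.29 and 1.12 for miR-106b-5p, miR-93-5p and miR-25-3p, SE 0.09 to 0.10) and in thymus (1.39, 1.38 and 1.47, SE 0.08 to 0.09). They were lower in brain (-2.32, -2.26 and -2.79, SE 0.17 to 0.19), diaphragm (-0.78, -0.65 and -0.51, SE 0.10) and GAT (-0.85, -0.26 and -0.47, SE 0.10). Calls in the same direction took 29.3% of all miRNAs in spleen, 30.6% in thymus, 40.0% in brain, 26.2% in diaphragm and 33.0% in GAT.

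The other 13 calls were spread over 7 tissues. In heart all 3 members were higher (0.77, 0.25 and 0.55), where 27.2% of all miRNAs were called higher, and in liver miR-106b-5p and miR-93-5p were (0.72 and 0.36, background 23.4%). A fit by limma with the animal as a block lost the call of miR-93-5p in heart and gained that of miR-93-5p in kidney. Lung was higher in miR-106b-5p and miR-25-3p (0.37 and 0.30, background 30.4%), and MAT in miR-25-3p (0.24, background 26.6%). SCAT was lower in miR-106b-5p (-0.68, background 26.2%), and BAT had no call. In kidney miR-106b-5p was higher (0.41, SE 0.09, background 27.0%) and miR-25-3p lower (-0.35, SE 0.10, background 36.2%) than in the other tissues. In pancreas the reverse held, with miR-106b-5p lower (-0.45, SE 0.11, background 36.7%) and miR-25-3p higher (0.53, SE 0.11, background 25.1%). Without TMM factors these 4 signs were kept, but miR-25-3p in kidney (-0.20) and miR-106b-5p in pancreas (-0.18) were no longer called.

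Some of these directions rest on the scaling. The most abundant miRNA took a median of 33.8% of the pool in liver (miR-122-5p), 25.4% in diaphragm and 22.2% in heart (miR-133a-3p in both), 21.7% in thymus (miR-181a-5p) and 7.09% to 19.1% elsewhere. The median TMM factor was -0.63 on the log2 scale in liver, -0.55 in heart and -0.38 in diaphragm, 0.00 in thymus, and 0.40 in MAT and 0.36 in GAT. Without TMM factors miR-93-5p turned to 0.03 in GAT, -0.27 in heart and -0.21 in liver. MiR-25-3p in heart turned to -0.01, and miR-106b-5p kept its sign in heart (0.22) and liver (0.14) but not its call. On the TMM scale liver and heart ranked 3 and 4 of 13 for miR-106b-5p and miR-93-5p.

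Ratios within a library do not depend on scaling. MiR-93-5p exceeded miR-106b-5p in 56 of 57 MAT, 44 of 47 spleen, 56 of 58 lung and 48 of 50 heart libraries and in every library of the other 9 tissues. Its median ratio to miR-106b-5p was highest in GAT at 3.62 (1.48 to 9.86, n = 60), followed by SCAT at 3.14, and lowest in heart at 1.73 (0.835 to 3.89, n = 50). In 40 mice with both tissues the log2 ratio was 1.17 ± 0.73 higher in GAT than in heart (38 of 40 mice, permutation test, p = 1e-05, the smallest that 100000 resamples can give, and 1.50e-05 adjusted over the 3 ratios). These tissues were picked as the extremes of 13, and likewise for the ratios that follow.

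The balance of miR-106b-5p and miR-25-3p turned over between tissues. Liver held a median of 2.26 miR-106b-5p counts for each miR-25-3p count (0.706 to 5.01, 54 of 58 libraries above 1), kidney 2.11 and brain 2.08, while pancreas held 0.653 (0.240 to 2.65, 6 of 39 libraries above 1). The difference between liver and pancreas was 1.58 ± 0.90 on the log2 scale (37 of 38 mice, permutation test, adjusted p = 1.50e-05), and 1.76 ± 0.88 in 28 of 29 mice without libraries resembling another tissue. In diaphragm, MAT, GAT and SCAT the pair stood near equality, with median ratios of 1.02, 0.985, 0.936 and 0.882. The ratio of miR-93-5p to miR-25-3p ran from a median of 4.88 in brain to 1.76 in pancreas, a difference of 1.05 ± 1.29 (6 of 9 mice, exact permutation test, p = 0.0352) that did not pass without libraries resembling another tissue (1.06 ± 1.37, 5 of 8 mice, exact permutation test, p = 0.0703).

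**Figure D2:**
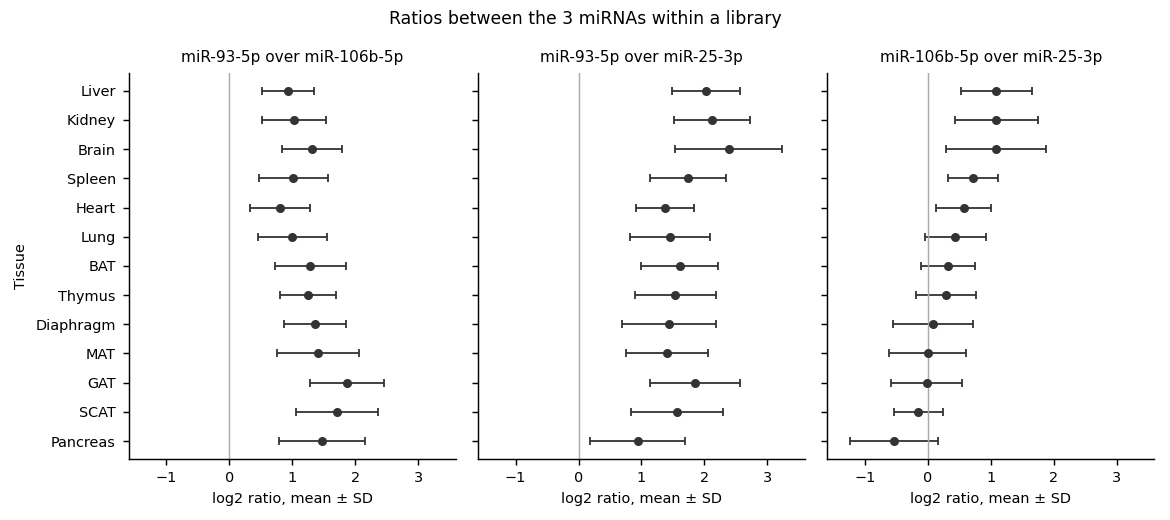
Points are the mean and bars the SD of the log2 ratio of 2 members within a library, for each of 13 tissues (n = 25 to 60), with the grey line at equal counts. MiR-93-5p lies above both partners in each tissue mean, and miR-106b-5p falls from above miR-25-3p in liver and kidney to below it in pancreas.

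The strands opposite the 3 main miRNAs were much rarer, and unevenly so. MiR-106b-3p made up a median of 8.54% of the counts from its hairpin, miR-93-3p 0.287% and miR-25-5p 0.242%. The share of miR-106b-3p was highest in diaphragm, at a median of 21.1% (mean 19.2% ± 9.63, SD), followed by GAT at 16.8% and SCAT at 13.7%, and lowest in liver at 3.42% (mean 3.78% ± 2.28). MiR-106b-3p was counted in every library, at medians from 38.0 CPM in liver to 203 CPM in spleen, whereas miR-93-3p was at 0 in 6 and miR-25-5p in 37 of 686 libraries.

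Among miRNAs with the same seed the weight of the cluster changed from tissue to tissue. MiR-106b-5p and miR-93-5p together gave a median of 63.3% of the counts of 6 miRNAs with the miR-17 seed, miR-6383 being left out. This share was lowest in thymus at 46.3% (33.9% to 75.4%) and highest in brain at 75.6% (49.4% to 89.1%). In thymus the miRNAs of the miR-106a-363 cluster took part of the family, 8.53% ± 3.81 (SD) for miR-20b-5p and 5.61% ± 2.46 for miR-106a-5p, beside 1.52% ± 0.702 and 0.980% ± 0.432 in spleen.

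MiR-25-3p gave a median of 34.3% of the counts with the miR-92 seed. Its share was largest in pancreas at 47.1% (15.2% to 74.9%) and spleen at 46.7% (19.5% to 78.9%), and smallest in brain at 5.97% (1.21% to 38.6%). In brain the family consisted mostly of miR-92b-3p, with a mean share of 76.5% ± 15.2 (SD) and a median level of 1479 CPM, against 12.3 CPM in spleen and 43.0 CPM in thymus. The median level of the whole miR-92 seed family was thus 1913 CPM in brain and 4670 CPM in spleen, a narrower gap than that of miR-25-3p itself. MiR-367-3p was close to absent, with a median of 0 CPM in every tissue.

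**Figure D3:**
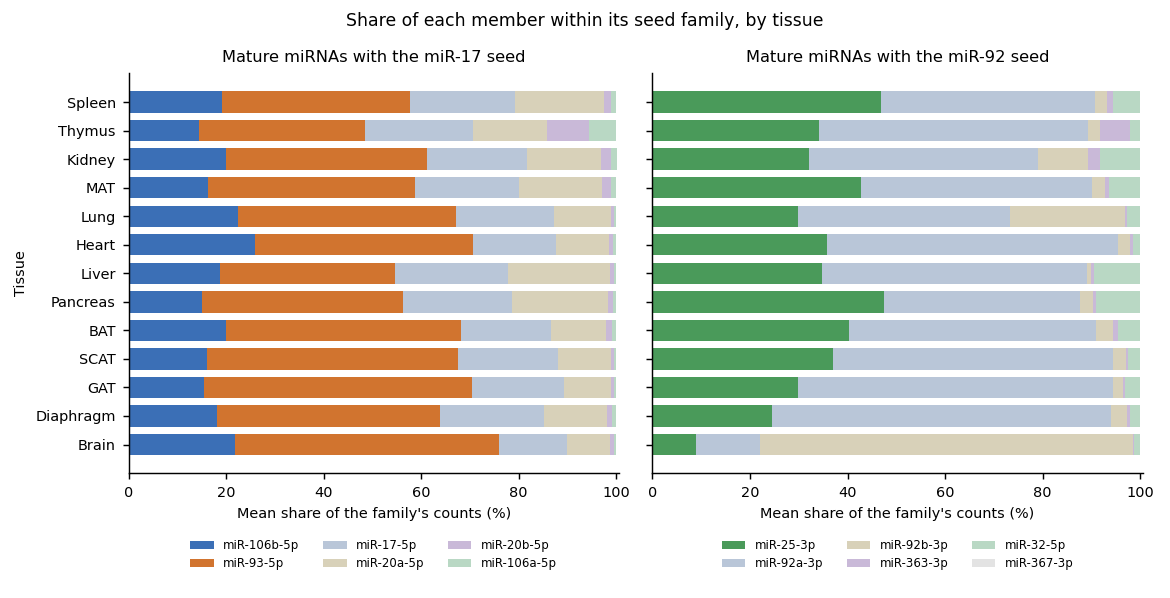
Stacked bars give the mean share, in percent, of each mature miRNA in the counts of its seed family per tissue, with the cluster members in strong colours. The members fill most of the miR-17 seed family outside thymus, where miR-20b-5p and miR-106a-5p widen, and miR-25-3p gives way to miR-92b-3p in brain.

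The members followed each other across tissues, with a correlation of the 13 tissue medians of r = 0.93 between miR-106b-5p and miR-93-5p, 0.85 between miR-106b-5p and miR-25-3p and 0.92 between miR-93-5p and miR-25-3p. All 3 miRNAs come from the same libraries and 1 transcript unit, and these values describe 13 points. Within single tissues the same correlations had medians of 0.72, 0.78 and 0.65 and were lowest in pancreas, at 0.40, 0.47 and 0.33. Of 599 other miRNAs, those with the highest mean correlation to the 3 members over the 13 tissue medians were miR-17-3p and miR-17-5p (both 0.94), miR-18a-5p (0.93), miR-15b-5p (0.92) and miR-16-2-3p (0.92). The first 3 come from the miR-17-92 cluster and the others from an intron of Smc4, the gene of a condensin subunit that compacts mitotic chromosomes. All 5 were lowest in brain and highest in thymus or spleen, for example miR-15b-5p at median levels of 9518 CPM in thymus and 228 CPM in brain. These 5 also stood first without the 11 pools. The leukocyte miRNAs miR-142a-5p and miR-142a-3p came close behind the 5, at ranks 6 and 8 (0.90 and 0.89). MiR-92b-3p ran against the members, with a mean correlation of -0.40.

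Markers of blood cells followed the same tissues in part. The 5 leukocyte miRNAs miR-142a-3p, miR-142a-5p, miR-150-5p, miR-155-5p and miR-223-3p summed to a median of 70359 CPM in spleen and 26878 CPM in thymus, and to 1872 CPM in kidney and 3435 CPM in brain. The 5 erythroid miRNAs, with miR-451a as the most abundant in spleen, summed to 99459 CPM in spleen, 77555 CPM in lung, 70470 CPM in heart and 3770 CPM in brain. Other tissues broke the likeness. The erythroid median was 32242 CPM in thymus, below kidney (41768) and liver (32986). The leukocyte median was 9758 CPM in diaphragm, above lung (7981), pancreas (5434) and heart (4345). Mean correlations to the members were 0.90 for miR-142a-5p, 0.89 for miR-142a-3p, 0.82 for miR-155-5p, 0.80 for miR-223-3p and 0.41 for miR-150-5p. Those of the erythroid miRNAs were 0.75 for miR-144-3p, 0.72 for miR-451a, 0.68 for miR-144-5p and 0.11 for miR-486a-5p and miR-486b-5p. The part of blood cells in the tissue pattern was not tested.

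Spaceflight was addressed by comparing the arms within each tissue and extraction, and for the cluster it gave no call. In FL vs. HGC of LAR, 0 of 39 member and tissue pairs passed edgeR's quasi-likelihood test with Benjamini-Hochberg adjustment, where 1.54% of all tests did. An unadjusted p under 0.05 was reached by 5 of the 39 (12.8%), close to the 12.3% of all tests. FL vs. VGC of LAR gave 0 calls beside 0.736% of all tests (1 of 39 under 0.05 unadjusted, beside 11.3% of all tests), and HGC vs. VGC gave 0 beside 0.176% (7 of 39 or 17.9% unadjusted, beside 11.4%). In TERM the counts were 0 of 39 for FL vs. HGC (background 0.307%), FL vs. VGC (0.712%) and HGC vs. VGC (0.251%), with 0, 1 and 2 of 39 under 0.05 unadjusted, beside 9.17%, 9.77% and 9.29% of all tests. DESeq2 also called 0 in each of these but HGC vs. VGC of LAR, where it called 1, miR-106b-5p in kidney. In kidney of LAR miR-106b-5p ranged from 590 to 1736 CPM in HGC (median 1364) and from 902 to 5370 CPM in VGC (median 1776), and the fitted differences of the 3 members were -0.67, -0.63 and -0.67 (SE 0.24 to 0.29, edgeR, adjusted p = 0.147, 0.242 and 0.233), with 1 of 10 HGC and 3 of 9 VGC libraries resembling another tissue. The liver miRNAs miR-122-3p and miR-122-5p and the heart markers miR-208a-3p, miR-208a-5p and miR-499-5p were called lower in the same comparison. Without libraries resembling another tissue the differences of the 3 members were -0.34, 0.16 and 0.04 (edgeR, adjusted p = 0.301, 0.739 and 0.960).

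The differences between FL and HGC were small in most tissues. In LAR they ranged from -1.93 to 0.69 on the log2 scale with a median size of 0.21 and a median SE of 0.30, and in TERM from -0.97 to 0.55 with a median size of 0.23 and a median SE of 0.33. Brain of LAR was measured least precisely, with 4 libraries per group and SEs up to 0.88. In spleen, where the members were most abundant, FL of LAR held 3513 to 5437 CPM of miR-106b-5p (median 3927) and HGC 615 to 4436 (median 3970). The spleen difference was 0.21 ± 0.36 (SE) for miR-106b-5p, -0.20 ± 0.36 for miR-93-5p and 0.60 ± 0.33 for miR-25-3p (edgeR, adjusted p from 0.567 to 0.913). The HGC minimum of 615 CPM was replicate 16, whose profile was closest to BAT, and the next HGC value was 3293 CPM. Without libraries resembling another tissue the spleen differences were 0.01, -0.35 and 0.48 (edgeR, adjusted p from 0.786 to 1.00).

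The smallest adjusted p between FL and HGC was in BAT of LAR. MiR-106b-5p ranged there from 551 to 5774 CPM in FL (median 973) and from 457 to 1245 CPM in HGC (median 694), a log2 difference of 0.69 ± 0.28 (edgeR, adjusted p = 0.106). The FL library at 5774 CPM, replicate 2, lay far above the HGC range and its profile was closest to spleen, and most others overlapped with HGC. In all 3 of the 10 FL and 1 of the 10 HGC libraries resembled another tissue, and without such libraries the difference was 0.10 ± 0.22 (SE, edgeR, adjusted p = 0.985). Of the miR-17 seed relatives, miR-106a-5p, miR-17-5p and miR-20a-5p were called higher in FL in this tissue, 3 of 52 tests over the 13 tissues, beside 1.54% of all tests, and miR-19b-3p of the paralogous clusters was called higher there too. The leukocyte miRNAs miR-142a-3p and miR-142a-5p, the liver miRNAs miR-122-3p and miR-122-5p, and miR-192-5p and miR-194-5p, whose medians were highest in liver and next in kidney, were called higher in FL of BAT too, and the brain marker miR-124-3p lower. Their part in the difference was not tested. In liver of LAR and TERM the relatives miR-106a-5p, miR-20b-5p and miR-363-3p, all from the miR-106a-363 cluster, were lower in FL than in VGC, a comparison in which the members had 0 calls. The same 3 were lower in HGC than in VGC in liver of TERM. MiR-181a-5p, the most abundant miRNA of thymus, was lower in all 3 of these comparisons, and VGC replicate 12 of LAR and VGC replicate 14 of TERM, both labelled liver, had profiles closest to thymus. Other markers called in liver were miR-181b-5p, miR-142a-3p and miR-449a-5p, lower in both comparisons of TERM, miR-155-5p, lower in FL than in VGC of TERM, and markers of brain, heart or pancreas, higher in 1 comparison each. The part of these in the liver differences was not tested.

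Heart of LAR showed the largest fitted differences between FL and HGC, and most of their size came from 1 library. FL held 310 to 1187 CPM of miR-106b-5p (n = 6, median 639), 566 to 1803 of miR-93-5p (median 826) and 176 to 653 of miR-25-3p (median 366). HGC held 609 to 4781 (n = 6, median 959), 1078 to 9136 (median 1666) and 435 to 4020 (median 683). The HGC maximum was replicate 16 in each case, at 4781, 9136 and 4020 CPM, and the next HGC values were 1219, 1852 and 1076 CPM. Of these, 1219 and 1076 CPM were those of HGC replicate 8, whose profile lay closest to lung. The FL minimum of 310 CPM was replicate 13, whose profile lay closest to diaphragm.

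That library had 12.5 M miRNA counts and its profile lay closest to heart. Its 5 erythroid miRNAs summed to 276668 CPM, where the other heart libraries of LAR did not exceed 69925 CPM, the value of HGC replicate 8. Its 5 leukocyte miRNAs summed to 3320 CPM, within the range of the others. Its 3 heart markers miR-208a-3p, miR-208a-5p and miR-499-5p summed to 1096 CPM, beside a median of 2274 CPM in heart. In HGC replicate 8 and FL replicate 13 these heart markers summed to 20.2 and 105 CPM. With it FL differed from HGC by -1.41, -1.68 and -1.93 on the log2 scale (edgeR, adjusted p = 0.238, 0.195 and 0.167), and without it by -0.27, -0.41 and -0.68 (adjusted p = 0.783, 0.627 and 0.377). HGC differed from VGC by 1.40, 1.12 and 1.45 with it and by 0.26, -0.16 and 0.21 without it.

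Age gave no call either. Both ages were present in 12 tissues of each extraction, since brain of LAR and pancreas of TERM came from 3-month mice alone. Comparing 8 with 3 months, 0 of 36 pairs passed in LAR (background 0.296%) and 0 of 36 in TERM (1.83%). Under 0.05 unadjusted were 2 (5.56%) and 4 (11.1%), beside 10.7% and 14.5% of all tests. DESeq2 called 0 and 1. Thymus, which shrinks with age, had lower medians at 8 months for each member in both extractions. MiR-106b-5p went from 2781 CPM (1038 to 3944, n = 15) at 3 months to 2028 (1202 to 4650, n = 15) at 8 months in LAR, and from 3765 (690 to 6830, n = 13) to 2873 (762 to 4763, n = 15) in TERM. The ranges overlapped widely. The fitted differences were -0.30 ± 0.21 (edgeR, adjusted p = 0.463) and -0.54 ± 0.24 (adjusted p = 0.215). Without the 164 libraries the LAR difference was called at -0.49, without the 11 pools at -0.51, and DESeq2 called the TERM difference. In thymus of LAR miR-9-5p, miR-192-5p and miR-194-5p were called lower at 8 months. In thymus of TERM miR-486a-5p and miR-486b-5p, listed here as erythroid but highest by median in heart, were called higher at 8 months. So were the muscle or heart miRNAs miR-1a-3p, miR-133b-3p, miR-208a-3p, miR-208a-5p and miR-499-5p. The part of these markers was not tested.

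The interaction of age with flight had 0 of 36 calls in LAR (background 0.113%) and 0 of 36 in TERM (1.06%), with DESeq2 at 1 and 0. Under 0.05 unadjusted were 6 (16.7%) and 1 (2.78%), beside 9.29% and 10.7% of all tests. The estimates ran from -2.16 to 1.14 in LAR and from -1.02 to 1.35 in TERM. The lowest was that of miR-25-3p in heart of LAR (SE 0.88, edgeR, adjusted p = 0.944), which was -0.37 without HGC replicate 16, the 8-month library described above, and the smallest adjusted p was that of miR-106b-5p in diaphragm of LAR (-1.67, SE 0.55, edgeR, adjusted p = 0.127). The largest positive estimates were in thymus, where they were 1.03, 1.04 and 1.14 in LAR (SE 0.48 to 0.55) and 1.35, 1.12 and 1.00 in TERM (SE 0.58 to 0.65) for miR-106b-5p, miR-93-5p and miR-25-3p. None of these passed (edgeR, adjusted p from 0.329 to 0.504).

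Comparing TERM with LAR over the 3 arms gave calls within tissues. By edgeR's quasi-likelihood test with Benjamini-Hochberg adjustment 4 of 39 pairs passed, all higher in TERM, where 6.81% of all tests passed and 3.65% passed in this direction. The estimate was above 0 in 31 of 39 pairs, with a median of 0.22. In each arm the extractions differ in the time of collection, anesthesia and freezing of the carcass, and in FL also in time on orbit and return, and these cannot be told apart. With the RNA extraction plate as a term, added after the data were seen, 5 pairs were called.

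In thymus miR-106b-5p was higher in TERM, at 690 to 6830 CPM (n = 28, median 3359), than in LAR, at 1038 to 4650 CPM (n = 30, median 2239), a log2 difference of 0.55 ± 0.16 (edgeR, adjusted p = 0.0192). MiR-25-3p had medians of 2612 CPM (551 to 5707) in TERM and 2011 (476 to 3737) in LAR and was higher by 0.55 ± 0.18 (adjusted p = 0.0291). MiR-93-5p had medians of 6996 CPM (1319 to 14732) and 5979 (2591 to 14247) and differed by 0.31 ± 0.17 (adjusted p = 0.222). The groups overlapped in all 3. Without TMM factors both calls were lost (0.45, adjusted p = 0.0720, and 0.43, adjusted p = 0.105), with plate as a term both were kept (0.68 and 0.60), and without the 164 libraries both were kept and miR-93-5p joined them (0.45, adjusted p = 0.0266). Of all miRNAs in thymus 5.81% were called higher in TERM. Of the leukocyte markers miR-150-5p, of mature lymphocytes, fell by 0.95 in the same comparison (edgeR, adjusted p = 0.0185), while miR-142a-3p (0.55), miR-142a-5p (0.29), miR-155-5p (0.13) and miR-223-3p (-0.39) did not pass. Of the erythroid markers miR-451a fell by 0.70 (adjusted p = 0.0319) and miR-144-3p by 0.83 (adjusted p = 0.0240), the other 3 did not pass, and the erythroid sum had medians of 36998 CPM in LAR and 19717 CPM in TERM. Markers of other tissues were called in thymus too. The muscle miRNA miR-499-5p was higher in TERM by 3.71 (edgeR, adjusted p = 9.84e-04), the liver miRNA miR-122-5p and the brain marker miR-128-3p were also higher, and the lung markers miR-34b-5p and miR-34c-5p were lower. The part of all these in the result was not tested.

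Relatives with the miR-17 seed gave 10 calls in 52 tests, all higher in TERM, where 3.65% of all tests were called higher and 6.81% in either direction. They comprised 4 in thymus (all 4 relatives), 2 in heart (miR-17-5p and miR-20a-5p), 2 in diaphragm and 1 each in lung and MAT. The other miRNAs of the paralogous clusters, miR-18a-5p, miR-18b-5p, miR-19a-3p and miR-19b-3p, gave 7 of 52, all higher, with 4 in thymus, 2 in pancreas and 1 in heart. The miRNAs from the Smc4 intron gave 6 of 39, all higher. Relatives with the miR-92 seed gave 5 of 52, 3 higher and 2 lower, with 0 in thymus. The opposite strands of the 3 hairpins gave 3 of 39, all higher and all in MAT. Markers of other tissues were called in the same tissues. In diaphragm miR-122-3p, miR-122-5p, miR-124-3p, miR-9-5p, miR-192-5p and miR-194-5p were higher in TERM and the 4 pancreas markers lower, and in pancreas miR-122-5p was higher and miR-208a-3p, miR-128-3p and miR-181a-5p lower. In MAT 46 of 57 libraries resembled another tissue, and all 5 leukocyte markers, the muscle miRNAs miR-1a-3p, miR-133b-3p and miR-206-3p and the liver miRNAs miR-122-3p and miR-122-5p were called higher in TERM there and 4 pancreas markers lower. Their part was not tested.

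In lung miR-93-5p was called, with 1057 to 4618 CPM in LAR (n = 30, median 2277) and 1297 to 13336 in TERM (n = 28, median 2633), a difference of 0.61 ± 0.17 (edgeR, adjusted p = 0.0351, beside 2.78% of lung miRNAs called higher). The medians lay close and the TERM maximum of 13336 CPM was 1 library, HGC replicate 12, whose profile was closest to spleen. Without libraries of another profile the difference was 0.55 and not called (adjusted p = 0.105), nor was it with plate as a term (0.59, adjusted p = 0.262). None of the 5 erythroid and 5 leukocyte markers passed in lung, but the liver miRNAs miR-122-3p and miR-122-5p and the liver and kidney miRNAs miR-192-5p and miR-194-5p were called higher in TERM and the pancreas marker miR-217-5p lower, and their part in the result was not tested.

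In heart miR-106b-5p had 310 to 4781 CPM in LAR (n = 22, median 786) and 932 to 5241 in TERM (n = 28, median 1540), a difference of 0.72 ± 0.19 (edgeR, adjusted p = 0.0336, beside 1.48% of heart miRNAs called higher). MiR-93-5p had medians of 1534 (566 to 9136) and 2602 CPM (1432 to 8665), and miR-25-3p of 549 (176 to 4020) and 976 CPM (429 to 3350). Their differences of 0.64 ± 0.20 and 0.62 ± 0.20 missed the threshold (adjusted p = 0.0720 and 0.0909).

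The heart result depended on HGC replicate 16 of LAR, the library described above. Without it the differences were 1.04, 1.01 and 0.97, all 3 called (edgeR, adjusted p = 5.71e-06, 1.37e-05 and 3.21e-05), which raised the calls over all tissues from 4 to 6 of 39, and leaving out the libraries with another tissue's profile as well gave 0.95, 0.94 and 0.98, again all called. With it but without those libraries, the call of miR-106b-5p was lost (0.56, adjusted p = 0.159). Leaving out this library was chosen after its values were seen.

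Erythroid miRNAs moved in the same direction in heart. Their summed level had a median of 39574 CPM in LAR (22152 to 276668) and of 107530 CPM in TERM (24100 to 225282), with miR-451a higher by 0.97 (edgeR, adjusted p = 0.0110), miR-144-3p by 1.21 and miR-144-5p by 1.20 (adjusted p = 0.00645 for both), while miR-486a-5p (0.37) and miR-486b-5p (0.35) did not pass. Of the leukocyte markers miR-142a-3p and miR-142a-5p were higher by 2.22 and 2.02 (adjusted p = 0.00645 for both), miR-150-5p (0.57), miR-155-5p (0.27) and miR-223-3p (0.85) did not pass, and the summed median was 4315 CPM in LAR and 4778 CPM in TERM. Without HGC replicate 16 of LAR and the libraries with another tissue's profile miR-142a-3p and miR-142a-5p were each higher by 1.23 (edgeR, adjusted p = 2.71e-04 and 1.46e-05). The part of blood cells in the heart result was not tested.

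**Figure D4:**
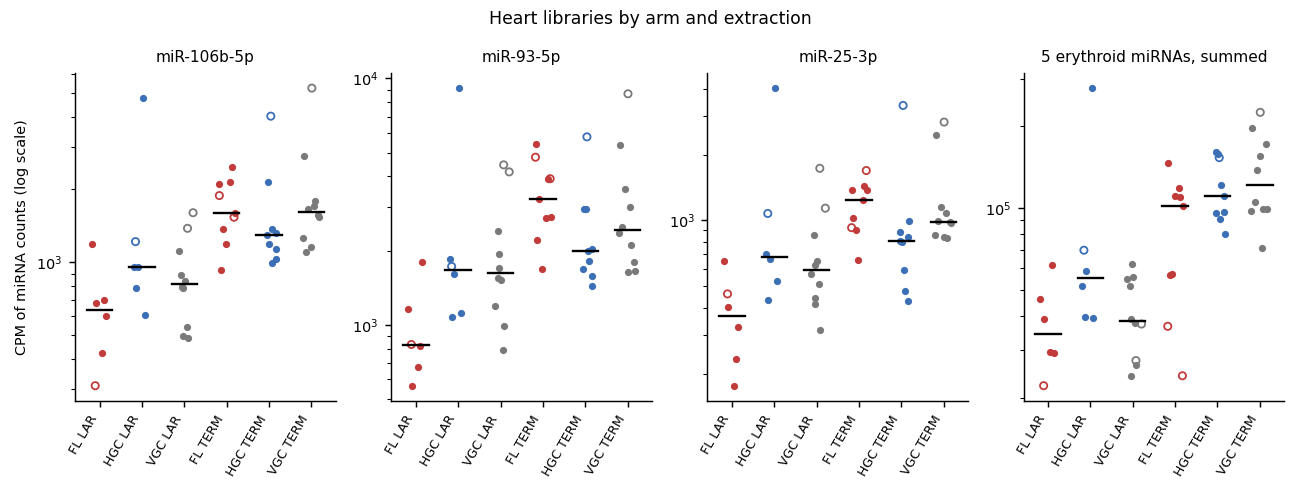
Each point is 1 heart library, by arm and extraction, on log axes in CPM of miRNA counts, for the 3 members and the sum of 5 erythroid miRNAs (bars are medians, open points are libraries whose profile is closest to another tissue). TERM medians lie above LAR medians in all 4 panels, and the HGC library of LAR at 4781, 9136, 4020 and 276668 CPM stands apart from its group.

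Whether flight acted differently in TERM and LAR was tested as an interaction of extraction with FL vs. HGC. It gave 0 of 39 calls (background 1.04%, and DESeq2 called 2), with 4 (10.3%) under 0.05 unadjusted, beside 10.7% of all tests. Heart came closest, at 1.27, 1.87 and 1.97 (edgeR, adjusted p = 0.147, 0.0578 and 0.0548), and without HGC replicate 16 of LAR the estimates were 0.32, 0.79 and 0.91 (adjusted p = 0.831, 0.368 and 0.305). With that library but without the 11 pools miR-25-3p was called (2.38, edgeR, adjusted p = 0.0379), as it was without the libraries resembling another tissue (2.45, adjusted p = 0.0270). In spleen, dissected fresh in TERM, TERM and LAR differed by 0.10, 0.08 and 0.10 for the 3 members (SE 0.18 to 0.21, adjusted p from 0.899 to 0.930). Whether thymus or heart differed from spleen in this respect was not tested.

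**Figure D5:**
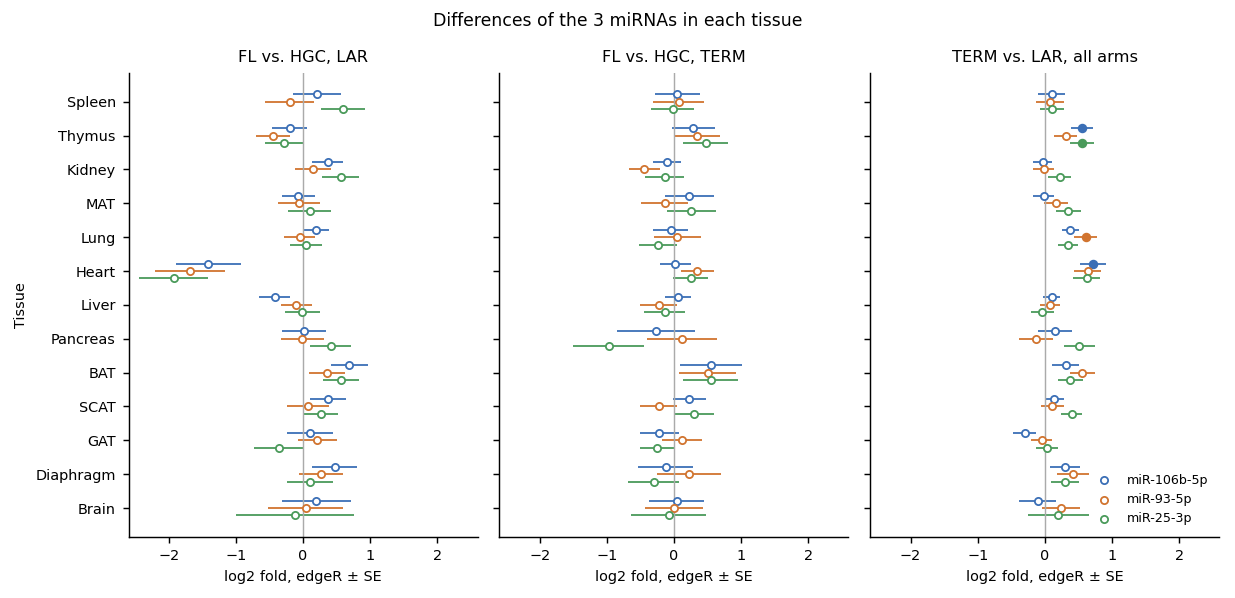
Points are edgeR log2 differences with their SE for FL vs. HGC in LAR and TERM and for TERM vs. LAR over all arms, in each of 13 tissues. Filled points mark the 4 calls, 2 in thymus and 1 each in lung and heart, and the heart estimates of FL vs. HGC in LAR are those that shrink without 1 HGC library.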

How the data were processed

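Small RNA libraries were made by the authors with the MGIEasy kit, which amplifies by PCR, and sequenced in pools. The authors deposited estimated counts per mature miRNA from miRMaster with miRBase and GRCm39, without normalization, and 0.790% of the values carry a fraction. PCR reads are not independent molecules. Pools and plates were taken from the study's sample list. CPM was computed over the miRNA counts of a library, with 1 CPM added before log2. Counts were rounded and fitted per tissue in edgeR 4.0.16 (limma 3.58.1, R 4.3.3) by quasi-likelihood with TMM factors, keeping miRNAs with at least 5 counts in 10% of the libraries of any arm (any tissue for the model over tissues), and called at a Benjamini-Hochberg adjusted p of 0.05 over all miRNAs tested in that fit. Neighbouring tissues and ratios were compared within mice by sign-flip permutation (100000 resamples, exact for small n), adjusted over the 12 pairs of a miRNA or over the 3 ratios. Each library was matched to the tissue with the highest correlation over 713 miRNAs, members and relatives left out. Alternatives were DESeq2 1.42.0, other scalings, filters and libraries left out. Fits were tested on simulated data. Members, lists and tests were chosen with earlier results of these data known. The miRNAs named are the members, their listed relatives and markers, and the 5 most alike. Python 3.11.15, pandas 2.3.3, scipy 1.17.1 and matplotlib 3.10.9 were used. Deposited files of other RNA classes were not used here.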

Additional observations from a re-analysis of the deposited data

Results flagged for a closer look

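Within groups of 4 to 10 libraries, 44 of 231 groups of a miRNA, tissue, extraction and arm had a library far from the others by Dixon's criterion, where chance gives about 1 in 20. They involved 32 libraries, and 28 of the 44 had the profile of another tissue. In the tissues with a call between extractions the values were as follows. In heart, HGC replicate 16 of LAR stood high with 4781 CPM of miR-106b-5p and 9136 CPM of miR-93-5p, and HGC replicate 12 of TERM, closest to spleen in its profile, with 3350 CPM of miR-25-3p. In lung, VGC replicate 16 of LAR was low with 549 CPM of miR-106b-5p and closest to SCAT, FL replicate 14 of TERM was low with 350 CPM of miR-106b-5p and 245 CPM of miR-25-3p and closest to BAT, and HGC replicate 12 of TERM was high with 5808 CPM of miR-106b-5p and closest to spleen. In thymus, HGC replicate 12 of LAR was low with 476 CPM of miR-25-3p, and FL replicate 1 of TERM was low with 690 CPM of miR-106b-5p and 1319 CPM of miR-93-5p, both with a thymus profile.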

How the results depend on the processing

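The 28 tissue calls were 22 to 32 under 7 alternatives, 28 with the animal as a block (estimated correlation between tissues of a mouse 0.00858). Spans between tissues, brain included, were 3.15 to 4.52 on the log2 scale. Without TMM factors miR-93-5p turned to 0.03 in GAT, -0.27 in heart and -0.21 in liver and miR-25-3p to -0.01 in heart. TMM changed the neighbouring steps to 3 for miR-106b-5p and 1 for miR-25-3p. Without the 11 pools miR-93-5p had 4 steps, and without the 164 libraries 5, with 4 for miR-25-3p. Between extractions DESeq2 called 7 pairs, and 2 were called without TMM factors and 2 without a filter. Their interaction with flight had 2 calls by DESeq2, 1 without a filter, 1 without the pools and 1 without the libraries. DESeq2 called 1 pair each in HGC vs. VGC of LAR, age in TERM and age by flight in LAR. Age in LAR had 1 call without the pools and 1 without the libraries. The study's rule of fold and effect size, on CPM, marked 1 pair in FL vs. HGC of LAR, 2 in FL vs. VGC of TERM and 1 in HGC vs. VGC of TERM. The pair of LAR was miR-93-5p in heart, with medians of 826 CPM in FL and 1666 CPM in HGC, replicate 16 included. The share of all miRNAs marked by this rule is not given here. The exact rank-sum test of FL vs. HGC called 0. Leaving out each mouse number in turn, in groups of 5 or fewer, gave 4 to 5 calls between extractions and 0 to 0 elsewhere. With mouse number as a replicate block, or plate as a term, the arms had 0 calls, as without, and the numbers do not pair mice (median correlation of deviations 0.014 for equal and 0.009 for different numbers). The fit with the animal block, by limma in place of edgeR, lost the tissue call of miR-93-5p in heart (0.20, adjusted p = 0.0553) and gained that of miR-93-5p in kidney. The causes were not tested. Scaling to all 7 RNA classes was not run, and the fits without the 164 libraries could not be made in MAT. The lowest member count was 59, and levels were not tested against depth.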
